A study of Mus musculus with 24 samples.

Results

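The genes described here are 8 of the 21965 genes in the deposited table of mouse gastrocnemius, the large calf muscle: Hdac4, Hdac5, Hdac7 and Hdac9, Dach2, and Mef2a, Mef2c and Mef2d. They were taken as the rows whose symbol is one of these names, as the pathway that links nerve activity to Myog, the gene of the muscle transcription factor myogenin, and their measured values played no part in the rule. The 24 RNA-seq libraries are labelled as 4 control libraries and as 4 each from 1, 3, 5, 7 and 14 days after denervation, when the muscle had lost its motor nerve. The labels give mouse and gastrocnemius for every library and no strain, genotype, sex, age, method of denervation or control procedure. The extraction text speaks of RNA from dorsal root ganglion neurons. The data bear on this: the summed level of 7 sensory neuron markers lay between 3.40 and 7.34 CPM (counts scaled to library size) in all 24 libraries, against at least 37212 for 6 muscle fibre markers, and Scn10a, a sensory neuron sodium channel gene, was at 0 in the control, day 1, day 5 and day 14 groups. The labels do not state whether libraries of 1 group are from different mice, and the spread that p-values rest on may be technical.

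Class IIa histone deacetylases are transcriptional repressors that shuttle between nucleus and cytoplasm. Kinases activated by calcium phosphorylate them, 14-3-3 proteins then hold them in the cytoplasm, and in the nucleus they bind MEF2 transcription factors and recruit corepressors. In innervated muscle Dach2, a DNA-associated corepressor, helps to keep Myog low. After denervation HDAC4 and HDAC5 repress Dach2, which releases Myog and through it the genes of the acetylcholine receptor. HDAC9 is known as a class IIa member whose gene is itself driven by MEF2, with a shortened product that lacks the catalytic domain. All of this acts largely through protein location and phosphorylation, which RNA levels do not measure.

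Promoter sequences are shown first for Myog, where the pathway ends, for Hdac4 and Hdac5, the repressors whose RNA moved in opposite directions, for Hdac9, a known MEF2 target, and for Dach2, the intermediate repressor. Each is the 250 bases 5′ of a transcription start in RefSeq (GRCm38.p6), read on the gene's own strand, 5′ to 3′. Capitals mark any match to TANNNNTA (the core of a MEF2 site), to the longer MEF2 consensus element, to TCAGGTTTC (the MEF3 site) or to CANNTG (the E box bound by myogenic factors), searched on both strands, where the first of these can lie inside the second.
Myog, chr1:134289754-134290003, plus strand: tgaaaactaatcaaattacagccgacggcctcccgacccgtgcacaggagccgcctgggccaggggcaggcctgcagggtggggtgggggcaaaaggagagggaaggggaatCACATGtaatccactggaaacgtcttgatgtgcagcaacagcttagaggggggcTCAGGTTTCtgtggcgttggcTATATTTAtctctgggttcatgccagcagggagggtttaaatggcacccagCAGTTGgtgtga
Hdac4, chr1:92180342-92180591, minus strand: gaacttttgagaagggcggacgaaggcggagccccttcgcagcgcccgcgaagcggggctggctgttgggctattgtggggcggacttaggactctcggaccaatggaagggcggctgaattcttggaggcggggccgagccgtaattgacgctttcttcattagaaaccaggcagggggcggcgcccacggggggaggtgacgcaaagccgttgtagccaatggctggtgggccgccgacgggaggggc
Hdac5, chr11:102230173-102230422, minus strand: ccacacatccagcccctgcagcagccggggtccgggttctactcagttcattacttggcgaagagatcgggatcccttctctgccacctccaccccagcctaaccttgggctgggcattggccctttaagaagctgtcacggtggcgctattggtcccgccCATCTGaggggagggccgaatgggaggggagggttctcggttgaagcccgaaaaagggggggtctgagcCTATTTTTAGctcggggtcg
Hdac9, chr12:34917096-34917345, minus strand: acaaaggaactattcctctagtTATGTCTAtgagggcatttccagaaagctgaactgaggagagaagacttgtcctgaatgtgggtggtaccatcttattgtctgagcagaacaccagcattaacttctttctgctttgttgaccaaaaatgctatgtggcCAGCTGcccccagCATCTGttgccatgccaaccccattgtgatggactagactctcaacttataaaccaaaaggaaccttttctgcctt
Dach2, chrX:113297260-113297509, plus strand: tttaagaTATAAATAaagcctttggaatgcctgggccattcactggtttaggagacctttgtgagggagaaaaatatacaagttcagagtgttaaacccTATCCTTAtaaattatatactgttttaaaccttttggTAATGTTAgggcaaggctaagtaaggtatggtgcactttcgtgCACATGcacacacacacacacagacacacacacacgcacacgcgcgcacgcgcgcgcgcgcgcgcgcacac
In the Myog window the MEF3 site TCAGGTTTC lies 84 to 76 bases before the start, TATATTTA lies 63 to 56 bases before it, and the E boxes CACATG and CAGTTG lie 138 to 133 and 12 to 7 bases before it. The Hdac5 window holds the MEF2 consensus element as CTATTTTTAG, 20 to 11 bases before the start, and is the 1 window with that element among the 16 of these 8 genes and Myog. The Hdac9 window shown, 1 of 2, holds TANNNNTA once and CAGCTG 89 to 84 bases before the start, and the second holds TANNNNTA at 3 places and CAGCTG once. The Dach2 window shown, 1 of 2, holds TANNNNTA at 3 places, and the second holds none of these letters. No capital stands in the Hdac4 window, and the windows of Mef2a and Mef2d also held none of these letters. By the GENCODE M21 coordinates given below, the Hdac4 window lies inside the gene, whose 5′ end is at 92195699. No window at that end was searched. The last bases of the Myog window, CAGTTG included, likewise lie past the gene start of 134289989 in that annotation. Among 32851 RefSeq promoter windows of this length, 2.92% hold the MEF2 consensus element, 34.4% TANNNNTA, 0.387% TCAGGTTTC, 66.2% CANNTG and 13.0% CAGCTG. These matches describe letters in a window and are not binding sites measured here.

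Library totals ran from 16082849 to 20696884 counts, the common coefficient of variation between libraries of a group was 0.0389, and edgeR tested 14247 genes, with a call at an adjusted p below 0.05. Levels are CPM after TMM scaling, which sets libraries on a common footing by a factor for each library. With it 70.2% to 76.9% of the genes tested were called against control on a day, so change was not confined to a few very abundant genes. The muscle fibre markers summed to 212075 to 218422 CPM in control and to 37212 to 37708 CPM at day 14, so scaling mattered: with library totals alone the median gene shifted against control by 0.61 (log2) at day 1, 0.34 at day 3, 0.67 at day 5, 0.81 at day 7 and 0.78 at day 14. At day 1, 5428 genes were called higher and 5157 lower with TMM, against 10051 and 1899 with totals alone. The corresponding splits were 4910 and 5087 against 7822 and 2595 at day 3, 5482 and 5103 against 10292 and 1680 at day 5, 5722 and 5229 against 10601 and 1732 at day 7, and 5578 and 5027 against 10605 and 1670 at day 14. Between days 1 and 3 the splits were 5139 and 5416 against 3529 and 7260, and between days 3 and 5 they were 5436 and 5582 against 7353 and 3622. Between days 5 and 7 the splits were 4812 and 4899 against 6140 and 3790, and between days 7 and 14 they were 3705 and 3650 against 2996 and 4339. Each change given here is relative to this shift. Summed B cell markers stood at 127 to 134 CPM at day 1 and 147 to 163 at day 5, and T cell markers at 54.7 to 58.0 and 68.4 to 72.3, against at most 2.22 and 2.85 CPM in every other library. Summed macrophage markers rose from 236 to 261 CPM in control to between 438 and 660 CPM in the denervated libraries, and the part of these cells in the values below was not tested. In bulk RNA, fewer cells of a type and less RNA per cell cannot be told apart.

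All 8 genes passed the expression filter and differed over the 6 groups in edgeR's omnibus test, where 96.7% of all genes tested did. Against control, Hdac4 was higher on all 5 days and Hdac5 and Dach2 were lower on all 5. Mef2a and Mef2c were higher at days 1, 5, 7 and 14 but lower at day 3, and Mef2d was lower by between 1.02 and 1.80 (log2) at those 4 days but stood almost at its control level at day 3. At day 1, 3 genes rose, 4 fell and Hdac9 did not pass, with 74.3% of all genes called (38.1% higher and 36.2% lower). At day 3, 1 rose and 7 fell, with 70.2% of all genes called (34.5% higher and 35.7% lower). At days 5, 7 and 14 the count was again 3 up, 4 down and Hdac9 not called. Of all genes, 74.3% were called at day 5 (38.5% higher and 35.8% lower), 76.9% at day 7 (40.2% and 36.7%) and 74.4% at day 14 (39.2% and 35.3%). These counts rest on TMM: under library totals alone 4 rose and 3 fell at day 1, 3 and 3 at day 3, and 5 and 3 at days 5, 7 and 14. Of the 14247 genes tested, that scaling called 10051 higher and 1899 lower at day 1 and 7822 and 2595 at day 3. It called 10292 and 1680 at day 5, 10601 and 1732 at day 7, and 10605 and 1670 at day 14. Hdac7 then changed sign on all 5 days and Mef2d at day 3, Hdac9 passed as higher at days 1, 5, 7 and 14, and Dach2 and Mef2a did not pass at day 3. The median log2 change of the 8 genes was -0.31, -0.56, -0.27, -0.28 and -0.27 in that order, beside 0.033, -0.026, 0.030, 0.050 and 0.064 over all genes tested. The share called among the 8 lies near that of all genes at days 1, 5, 7 and 14, and the 5 comparisons share the control libraries.

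**Figure D1:**
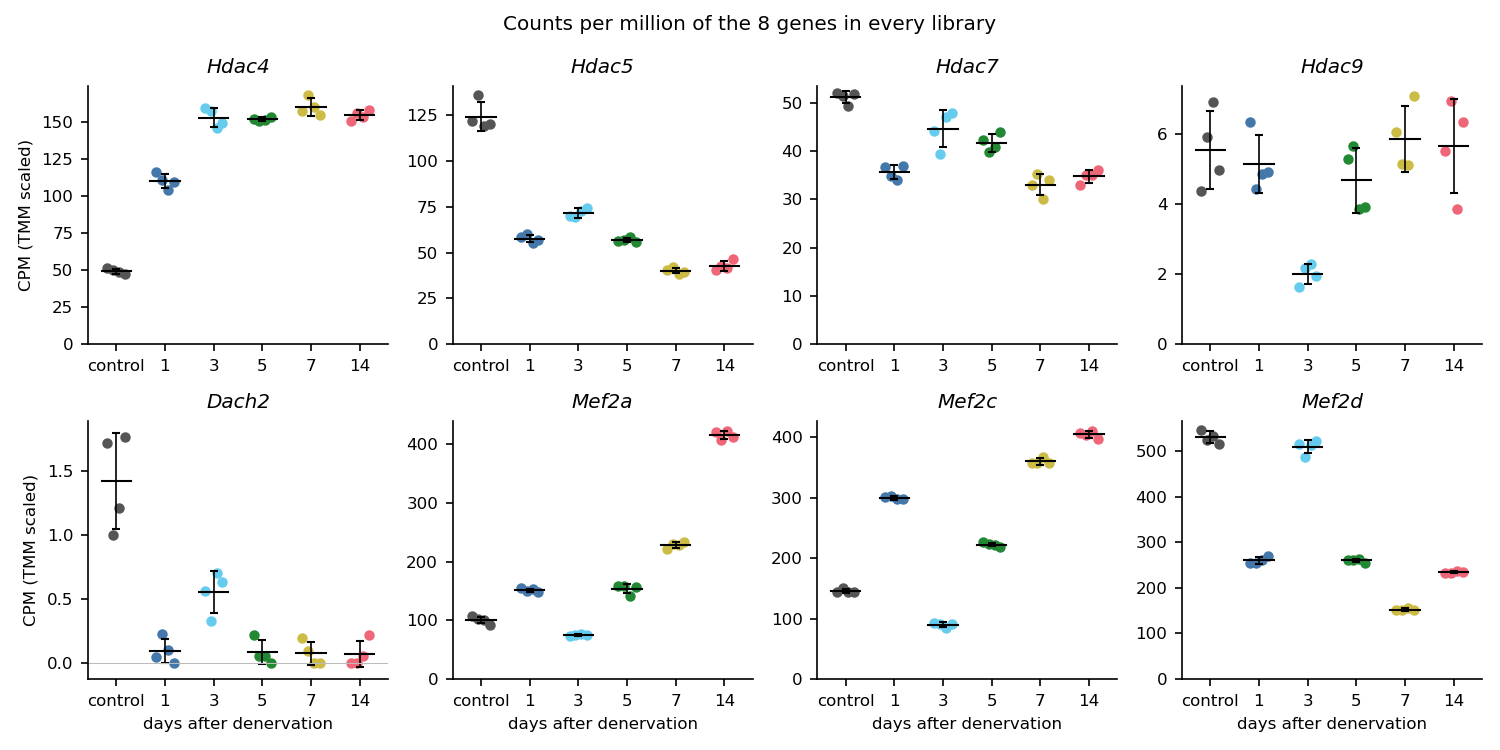
Level of each of the 8 genes (CPM after TMM scaling, 1 panel per gene, linear axis with its own scale) in control and at 1, 3, 5, 7 and 14 days after denervation. Points are the 4 libraries of a group, horizontal bars the mean and whiskers the SD. Hdac4 climbs from 49.4 to 153 CPM by day 3 and stands at 152 to 160 CPM on later days (with library totals alone it is 0.26 higher, log2, at day 5 than at day 3), and Mef2a and Mef2c dip to 75.2 and 89.9 CPM at day 3 between higher values.

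Hdac4, the class IIa member most studied as the carrier of the denervation signal (ENSMUSG00000026313, chr1:91928779-92195699, minus strand), rose on all 5 days under both scalings, and with TMM no other gene of the family did on any day. It stood at 51.5, 50.1, 48.7 and 47.4 CPM in the control libraries, at 116, 111, 104 and 110 CPM at day 1 and at 160, 158, 146 and 150 CPM at day 3. It then stood at 153, 151, 152 and 154 CPM at day 5, at 158, 169, 161 and 155 CPM at day 7 and at 151, 157, 154 and 159 CPM at day 14. Every denervated library lay above every control library, and every library from day 3 on lay above every day 1 library. The log2 change against control was 1.16 ± 0.040 (SE) at day 1, a 2.23-fold rise (edgeR adjusted p = 4.5e-29), and 1.63 ± 0.039, 1.62 ± 0.039, 1.70 ± 0.039 and 1.65 ± 0.039 at days 3, 5, 7 and 14. Day 3 exceeded day 1 by 0.47 ± 0.033. With TMM the later days lay close together: day 5 minus day 3 was -0.0091 (adjusted p = 0.80) and day 14 minus day 7 was -0.050 (0.18), while day 7 minus day 5, 0.075 ± 0.032, passed in edgeR with TMM (0.034) but not with DESeq2 or its size factors. This level course rests on the scaling, since with library totals alone day 5 exceeded day 3 by 0.26 (adjusted p = 8.3e-10) and day 14 exceeded day 3 by 0.36 (7.7e-14).

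Hdac5, which acts beside HDAC4 on the same targets (ENSMUSG00000008855, chr11:102194432-102230166, minus strand), fell. Its control libraries stood at 122, 136, 119 and 120 CPM, against 58.3, 60.0, 55.2 and 56.9 CPM at day 1 and 69.8, 69.2, 72.8 and 74.5 CPM at day 3. It stood at 56.1, 56.9, 58.5 and 56.0 CPM at day 5, at 40.7, 42.1, 38.4 and 39.5 CPM at day 7 and at 40.5, 42.9, 41.5 and 46.6 CPM at day 14. No denervated library reached a control library, and the lowest values lay at days 7 and 14. The log2 changes were -1.11 ± 0.043, -0.80 ± 0.043, -1.13 ± 0.043, -1.63 ± 0.045 and -1.53 ± 0.044, at most a 3.09-fold fall (day 7, edgeR adjusted p = 3.3e-33). In order of level, days 7 and 14 did not differ beyond their spread (0.092 ± 0.047, adjusted p = 0.10), nor did days 5 and 1, while day 3 stood above day 1 by 0.31 ± 0.044 and below control.

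Hdac7, the family member known from blood vessels and thymocytes (ENSMUSG00000022475, chr15:97792664-97844502, minus strand), changed less. It ranged from 49.3 to 52.0 CPM in control, 34.1 to 37.0 at day 1, 39.5 to 47.8 at day 3, 39.8 to 43.9 at day 5, 30.2 to 35.3 at day 7 and 32.9 to 36.0 at day 14. The denervated libraries all lay below the control libraries on this scale, with log2 changes of -0.52, -0.20 (edgeR adjusted p = 0.0013), -0.29, -0.63 and -0.56, but with library totals alone the sign turned at every day, to 0.063, 0.18, 0.35, 0.14 and 0.16. Its direction therefore rests on the scaling. Its exons overlap those of Slc48a1 on the opposite strand, which stood at 117 CPM on average, and since the use of strand is not given, reads of the pair could be mixed. The summed level of 7 endothelial markers was 1935 to 2013 CPM in control and 645 to 1101 CPM in the denervated libraries. Pecam1, Cdh5, Tie1 and Cldn5 were lowest at day 7, Kdr and Emcn at day 1 and Vwf at day 5. The part of endothelial cells in the Hdac7 values was not tested.

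Hdac9 (ENSMUSG00000004698, chr12:34047580-34917095, minus strand) was the scarcest deacetylase of the 4 and moved at day 3 alone in edgeR with TMM. Its control libraries stood at 4.37, 5.92, 6.91 and 4.96 CPM and its day 3 libraries at 1.63, 2.16, 2.29 and 1.95 CPM. The libraries of the other days ranged from 3.86 to 7.09 CPM, across the control range. The day 3 change was -1.46 ± 0.20 (log2), a 2.75-fold fall (edgeR adjusted p = 1.9e-08). Day 3 also lay below day 1 by 1.35 ± 0.19 and below day 5 by 1.21 ± 0.20. At days 1, 5, 7 and 14 the changes were -0.11, -0.25, 0.073 and 0.027 (adjusted p = 0.58, 0.20, 0.70 and 0.89), and with library totals alone all 4 passed as rises, at 0.47, 0.40, 0.84 and 0.74, while day 3 remained lower.

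To compare the 4 deacetylases with each other, TPM, the deposited level that allows for transcript length, was used as shares of their sum within a library, since a share does not depend on scaling between libraries. Hdac5 held 57.8 ± 2.2% (SD, n = 4) of class IIa HDAC TPM in control and Hdac4 17.7 ± 1.5%. At day 1 Hdac4 held 46.0 ± 1.8% and Hdac5 31.8 ± 1.0%, and at day 7 they held 59.3 ± 1.4% and 21.1 ± 0.76%. The leading member by TPM had changed from Hdac5 to Hdac4 by day 1, and it was Hdac4 on all later days, at 47.0%, 51.6% and 57.0% on days 3, 5 and 14. The exact two-sided permutation test gave p = 0.0286 for both genes on all 5 days, the smallest that 4 against 4 libraries allow (0.0357 adjusted over 35 share tests, of which 28 passed). The shares of a family add up to the whole, so these tests are tied to each other, and a share can fall because another gene rose. The share of Hdac7 went from 22.2% to 16.8% at day 7 and 18.3% at day 14, which passed, and 19.8%, 20.3% and 19.9% on the other days did not. Its TPM was not lower on those 2 days, at 15.3 in control, 18.2 at day 7 and 19.2 at day 14, while Hdac4 TPM went from 12.2 in control to 64.1 at day 7. The share of Hdac9 passed at day 3, 0.79% against 2.24%. The summed TPM of the 4 genes was 68.7 ± 3.7 in control and 89.5 to 116 on the denervated days as group means. TPM carries no correction for the shift in scale described above.

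**Figure D2:**
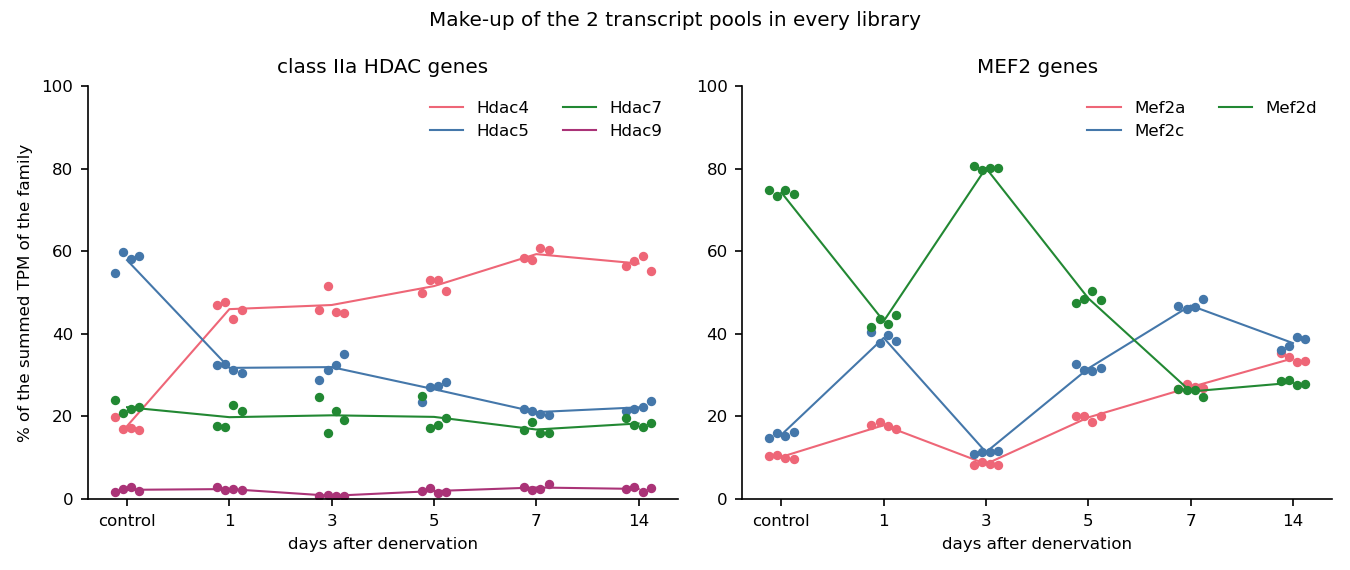
Share of each gene in the summed TPM of its family, in percent per library, for the class IIa HDACs (Hdac4, Hdac5, Hdac7, Hdac9) and the MEF2 factors (Mef2a, Mef2c, Mef2d), by group. Points are libraries and lines join group means. Hdac4 passes Hdac5 between control and day 1 (17.7% to 46.0% against 57.8% to 31.8%), and Mef2d goes from 74.2% in control to 43.1% at day 1, 80.1% at day 3 and 26.1% at day 7.

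Dach2 (ENSMUSG00000025592, chrX:113297510-113836386, plus strand), the repressor placed between the class IIa HDACs and Myog, was nearly lost. Its expected counts were 20, 12, 15 and 21 in the control libraries, 1, 4, 2 and 0 at day 1 and 9, 6, 11 and 10 at day 3. At day 5 they were 4, 1, 1 and 0, at day 7 they were 4, 2, 0 and 0, and at day 14 they were 0, 0, 1 and 4. All control libraries lay above all denervated libraries, and the day 3 libraries lay between the control libraries and those of every other day. As CPM the group means were 1.42 ± 0.38 in control, 0.0925 ± 0.096 at day 1, 0.554 ± 0.16 at day 3 and 0.0816, 0.0717 and 0.0662 at days 5, 7 and 14. Summed over libraries, the control level was 15.8 times that of day 1 (95% exact counting interval 7.24 to 40.7), 2.60 times that of day 3 (1.71 to 4.01) and 17.6, 19.1 and 22.5 times that of days 5, 7 and 14 (lowest bound 7.69). These intervals cover counting error alone.

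In the edgeR fit the Dach2 changes were -3.87 ± 0.63, -1.36 ± 0.48, -4.03 ± 0.65, -4.14 ± 0.65 and -4.34 ± 0.67 (log2, adjusted p = 5.3e-07, 0.012, 4.3e-07, 2.0e-07 and 1.6e-07). The gene passed the filter on low counts through the groups where it is high, so some difference was built in. Day 3 lay above day 1 by 2.51 ± 0.71 (adjusted p = 0.0015), a count ratio of 6.06 (2.66 to 16.1), and day 5 lay below day 3 by 2.67 ± 0.73 (0.0011). The day 3 difference from control was -0.99 with library totals alone and did not pass there. Differences among days 1, 5, 7 and 14 were not detectable at 5 to 7 counts per group.

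Mef2a (ENSMUSG00000030557, chr7:67231163-67372858, minus strand) encodes a MEF2 factor of mature muscle and showed the largest rise among the 8 genes. Its control libraries stood at 107, 103, 100 and 92.7 CPM, its day 1 libraries at 154, 149, 153 and 148 CPM and its day 3 libraries at 73.5, 75.4, 76.1 and 75.5 CPM. It stood at 158, 159, 142 and 156 CPM at day 5, at 222, 230, 227 and 233 CPM at day 7 and at 420, 407, 422 and 412 CPM at day 14. Day 3 lay below control without overlap, and days 1, 5, 7 and 14 lay above it. The log2 changes were 0.59 ± 0.034, -0.42 ± 0.037, 0.61 ± 0.034, 1.18 ± 0.033 and 2.05 ± 0.033, which at day 14 is 4.13-fold (edgeR adjusted p = 9.0e-43). The fall at day 3 depended on scaling, with -0.042 under library totals alone, but day 3 lay below day 1 (-1.01 ± 0.034) and below day 5 (by 1.03 ± 0.034) under every scaling tried. Exons of Mef2a overlap Lysmd4 on the opposite strand, which stood at 17.3 CPM on average.

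Mef2c (ENSMUSG00000005583, chr13:83504034-83667080, plus strand), needed for the organisation of the sarcomere, followed the same course. It stood at 145, 151, 144 and 144 CPM in control, at 301, 303, 298 and 297 CPM at day 1 and at 92.1, 91.8, 83.8 and 91.9 CPM at day 3. It stood at 226, 223, 221 and 219 CPM at day 5, at 357, 358, 368 and 357 CPM at day 7 and at 407, 404, 411 and 396 CPM at day 14. No 2 groups overlapped, and each neighbour in the order day 3, control, day 5, day 1, day 7 and day 14 differed in edgeR. The log2 changes were 1.04 ± 0.026, -0.70 ± 0.029, 0.61 ± 0.027, 1.30 ± 0.026 and 1.47 ± 0.026, a 2.77-fold rise at day 14. Day 3 lay 1.74 ± 0.027 below day 1 and 1.31 ± 0.027 below day 5. B cells also express Mef2c, and the B cell markers were high at days 1 and 5. At days 7 and 14 those markers stood at 0.725 to 2.22 CPM, against 1.37 to 2.02 CPM in control. Summed macrophage markers were above control on those days, at 651 and 447 CPM against 250 CPM as group means. The part of B cells, macrophages or other cells in the Mef2c values was not tested.

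Mef2d (ENSMUSG00000001419, chr3:88142372-88172086, plus strand), the most abundant MEF2 factor by TPM in control, moved the other way. It stood at 546, 524, 533 and 515 CPM in control, at 255, 255, 262 and 270 CPM at day 1 and at 515, 487, 513 and 521 CPM at day 3. It stood at 260, 262, 263 and 255 CPM at day 5, at 151, 150, 156 and 151 CPM at day 7 and at 233, 232, 236 and 235 CPM at day 14. Day 3 overlapped control, and the libraries of days 1, 5, 7 and 14 all lay far below. The log2 changes were -1.02 ± 0.024, -1.03 ± 0.024, -1.80 ± 0.025 and -1.18 ± 0.024 at days 1, 5, 7 and 14, a 3.48-fold fall at day 7 (edgeR adjusted p = 3.4e-45). At day 3 the difference was -0.057 ± 0.024 (adjusted p = 0.029). It was 0.32 with library totals alone and no longer passed without control replicate 1, control replicate 3 or day 3 replicate 2, at -0.033 to -0.067 over all replicates left out.

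Within the summed MEF2 TPM, Mef2d held 74.2 ± 0.76%, Mef2c 15.6 ± 0.74% and Mef2a 10.2 ± 0.40% in control. At day 7 Mef2c led with 46.9 ± 1.1%, beside 27.1 ± 0.47% for Mef2a and 26.1% for Mef2d, and at day 14 Mef2c, Mef2a and Mef2d held 37.8 ± 1.5%, 34.1 ± 1.0% and 28.2%. At day 3 Mef2d held 80.1 ± 0.44%, above control, with Mef2c at 11.4% and Mef2a at 8.50%. All 15 of these MEF2 shares differed from control in the exact permutation test at its smallest value, p = 0.0286 (0.0357 adjusted). Here too the shares of a library add up to the whole, so the 15 tests are tied to each other. The dominance of Mef2d seen in control was thus present at day 3 and absent at days 7 and 14. The summed TPM of the 3 genes was 240 ± 5.2 in control, 292 to 373 at days 1 to 7 and 503 ± 16 at day 14. TPM carries no correction for the shift in scale, so these sums do not settle the direction of the summed level against control. The fourth factor, Mef2b, was too low to be tested.

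Between neighbouring days most of the genes, though not Hdac4 or Hdac7, changed direction around day 3. Each day is a single group of 4 libraries and the labels name no batch. The time after denervation and any difference in collection or handling between groups therefore cannot be told apart. From day 1 to day 3, Hdac4, Hdac5, Hdac7, Dach2 and Mef2d rose and Hdac9, Mef2a and Mef2c fell (74.1% of all genes called, 36.1% higher and 38.0% lower), and from day 3 to day 5, 3 rose, 3 fell and Hdac4 and Hdac7 did not pass (77.3% called, 38.2% higher and 39.2% lower). From day 5 to day 7, Hdac4, Mef2a and Mef2c rose, Hdac5, Hdac7 and Mef2d fell, and Hdac9 and Dach2 did not pass (68.2% called, 33.8% higher and 34.4% lower). From day 7 to day 14, Mef2a, Mef2c and Mef2d rose and the other 5 did not pass (51.6% called, 26.0% higher and 25.6% lower). With library totals alone Hdac7 no longer passed from day 1 to day 3 (0.11), rose from day 3 to day 5 (0.17), and Hdac5 did not pass from day 3 to day 5 (-0.062).

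**Figure D3:**
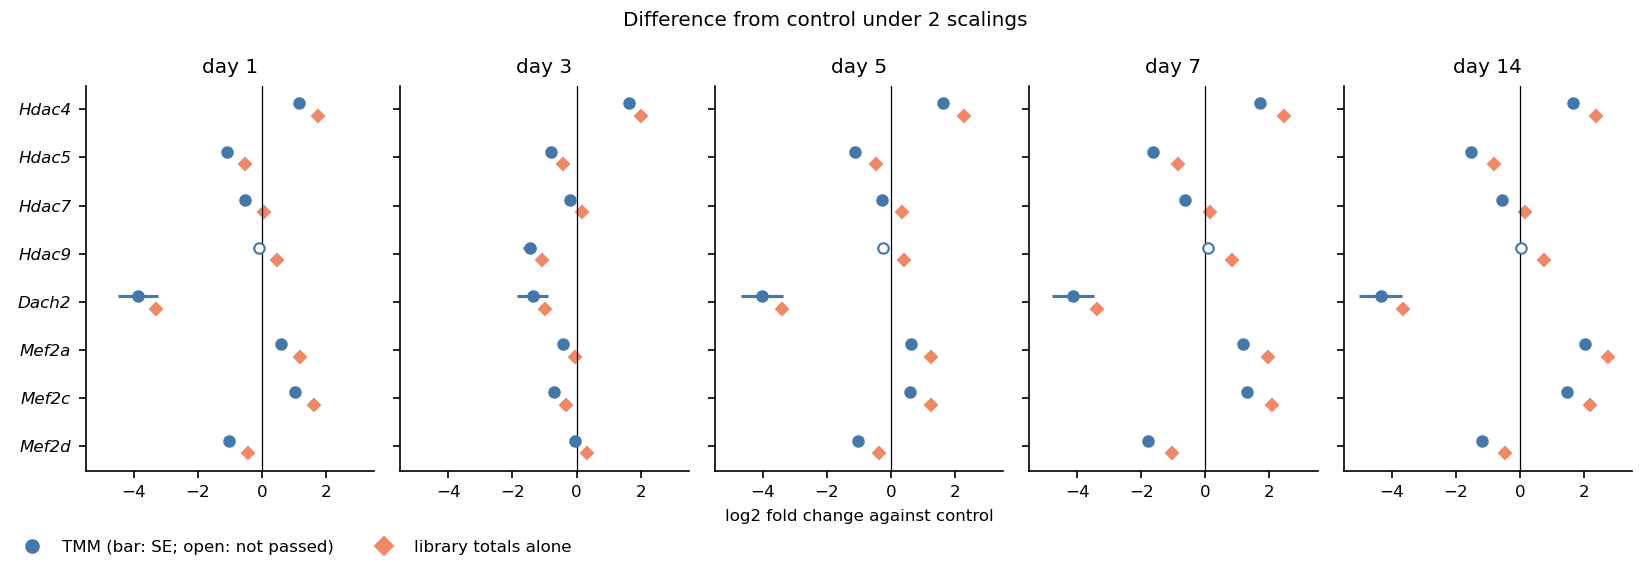
Log2 change against control of the 8 genes at days 1, 3, 5, 7 and 14, with TMM scaling and with library totals alone. For TMM (circles) bars are standard errors and open markers did not pass an adjusted p of 0.05, and diamonds are library totals alone. Hdac4 lies above 0 and Hdac5 and Dach2 below 0 under both, whereas Hdac7 changes sign at every day (for example -0.29 against 0.35 at day 5) and Mef2d at day 3 (-0.057 against 0.32).

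Myog (ENSMUSG00000026459, chr1:134289989-134292548, plus strand), the gene at the end of the pathway, rose on every day, from 19.8 ± 1.8 CPM in control to 118 ± 7.0 at day 1, 132 ± 6.7 at day 3, 106 ± 3.9 at day 5, 102 ± 2.6 at day 7 and 221 ± 11 at day 14 (SD, n = 4). The log2 changes were 2.57 ± 0.056, 2.74 ± 0.056, 2.41 ± 0.057, 2.37 ± 0.057 and 3.47 ± 0.053. Its level was 5.94-fold above control at day 1 and 6.66-fold above at day 3, an order that turned with library totals alone (day 3 minus day 1 was 0.16 with TMM and -0.041, not passing, with totals). From day 7 to day 14 Myog rose by 1.11 ± 0.038, and Mef2a, Mef2c and Mef2d rose by 0.86, 0.17 and 0.62. With TMM Hdac4 did not pass over these days. Dach2, at 6 and 5 summed counts, was too low for a change to be seen (count ratio 0.85, 95% exact counting interval 0.21 to 3.35). Of the 7 genes listed as Myog and synaptic genes downstream, 6 rose and 1 fell at days 1, 5, 7 and 14, and 4 rose and 2 fell at day 3 (6 and 1 with library totals alone). With TMM, 34.5% to 40.2% of all genes were called higher on a day and 35.3% to 36.7% lower. With library totals alone 7822 of the 14247 genes tested were called higher at day 3 and 2595 lower. Chrna1, Chrnd and Chrng, acetylcholine receptor subunit genes, changed by 3.45, 4.12 and 6.86 at day 1. At day 3 Chrna1 and Chrnd changed by 0.18 and 0.38, and Chrng stood at 0.57 ± 0.38 without passing, though it passed at 0.94 with library totals alone. By day 14 they had risen by 4.82, 6.64 and 9.57. Chrne, the adult subunit gene, was the member that fell at days 1, 5, 7 and 14, and it fell at day 3 too, though with library totals alone its fall at day 7 did not pass.

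The kinases that send class IIa HDACs out of the nucleus were called in both directions, in shares near those of all genes at day 1 (38.1% higher and 36.2% lower). Of 15 tested, 5 rose and 6 fell at day 1, 5 and 6 at day 3, 6 and 9 at day 5, 4 and 8 at day 7 and 3 and 10 at day 14. Over all genes 34.5% were higher and 35.7% lower at day 3, and 38.5% and 35.8% at day 5. At day 7 these shares were 40.2% and 36.7%, and at day 14 they were 39.2% and 35.3%. Camk2a, a calcium/calmodulin-dependent kinase gene, changed by -0.82 at day 1, -1.15 at day 3, -2.12 at day 5, -2.38 at day 7 and -3.13 at day 14. Camk2d, of the same kinase family, rose by 0.79 at day 1 and by 2.02 at day 14, and Sik1, a salt-inducible kinase gene, rose by 1.98 at day 3 and by 2.42 at day 5. Camk4 rose by 1.96 ± 0.59 at day 1 and 2.62 ± 0.55 at day 5, the days when T cell markers were high, and did not pass on the other days (with library totals alone it passed at days 7 and 14 too), and the part of those cells was not tested. With library totals alone the splits were 12 up and 1 down, 8 and 3, 12 and 2, 13 and 2, and 10 and 2 at days 1, 3, 5, 7 and 14. Of the 14247 genes tested, 7822 to 10605 were then called higher on a day and 1670 to 2595 lower. Camk2a remained lower than control and Camk2d and Sik1 higher at every day under that scaling.

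Of 7 genes for 14-3-3 proteins, which hold phosphorylated HDACs in the cytoplasm, 6, 5, 4, 5 and 5 rose at days 1, 3, 5, 7 and 14. In that order 0, 1, 2, 1 and 2 fell. Of all genes tested, 38.1%, 34.5%, 38.5%, 40.2% and 39.2% were called higher on these days. The shares called lower were 36.2%, 35.7%, 35.8%, 36.7% and 35.3%. Ywhab rose by 1.16, 0.73, 0.97, 1.40 and 1.06 and Ywhaq by 0.70, 0.19, 0.45, 0.82 and 0.48. Ywhag rose by 0.76 at day 3 and fell by 0.22 at day 14, where its sign was the opposite with library totals alone, and Sfn fell by 0.80 at day 7 and by 0.82 at day 14, neither of which passed under that scaling. The median change of the list was 0.37, 0.35, 0.42, 0.55 and 0.48, beside at most 0.064 over all genes. With library totals alone 7, 6, 7, 6 and 6 of the list rose and 0 fell on each day. That scaling called 7822 to 10605 of the 14247 genes tested higher on a day and 1670 to 2595 lower.

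Corepressors that bind class IIa HDACs were called in both directions with TMM. Of 9 genes, 3 rose and 2 fell at day 1, 4 and 2 at day 3, 2 and 2 at day 5, 2 and 4 at day 7, and 3 and 3 at day 14, with medians of 0.089, -0.072, 0.052, -0.062 and 0.056, beside the shares of all genes given above (38.1% higher and 36.2% lower at day 1). Under library totals alone these splits were 8 up and 1 down, 7 and 2, 9 and 0, 8 and 0, and 8 and 1. That scaling called 7822 to 10605 of the 14247 genes tested higher on a day and 1670 to 2595 lower. Sin3a, the scaffold of the SIN3 complex, was lower on all 5 days (-0.71, -0.81, -0.42, -0.79 and -0.61), although with library totals alone the sign turned at days 5 and 14 and the fall at day 7 did not pass. Gps2, a subunit of the NCoR complex, fell by 1.08 at day 14, and Ncor1 fell by 0.52 at day 3. Of 7 other histone deacetylase genes, 3 rose and 2 fell at day 1, 2 and 2 at day 3, 3 and 3 at days 5 and 14, and 3 and 4 at day 7, against 5 and 1 at day 1 and 4 and 1 at each later day with library totals alone. Hdac1 rose by 0.73, 0.24, 0.41, 0.61 and 0.33. Hdac11 fell by 1.02, 1.18, 1.15 and 1.33 at days 1 to 7 and stood at -0.18 at day 14 without passing, where library totals alone gave 0.53 and a pass. Hdac3, the catalytic partner that class IIa HDACs recruit, did not pass at days 1 and 3 and fell by 0.54, 0.81 and 0.83 at days 5, 7 and 14, while library totals alone placed it higher at days 1, 3 and 5 and took the call away at day 7 (-0.047). Hdac10 fell by 0.78 at day 14, which did not pass with library totals alone (-0.068).

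Dach2 belongs with Dach1 and the Eya factors to the network that acts on MEF3 sites such as that of Myog. Of its 10 listed genes, Dach2 included, 9, 8, 8, 9 and 7 fell and 1, 1, 0, 1 and 1 rose at days 1, 3, 5, 7 and 14. Between 35.3% and 36.7% of all genes were called lower on a day with TMM. Dach1 changed by -1.27 ± 0.12, -0.56 ± 0.12, -1.38 ± 0.13, -1.0 ± 0.12 and -0.36 ± 0.11, a smaller fall than that of Dach2 in the same fits, the difference between the pair not being tested. Six2 fell by 0.81 at day 1 and 1.89 at day 14 and stood at 0.08 at day 3 without passing. Eya1 fell by 1.15 at day 1, 0.96 at day 5 and 0.45 at day 14. These falls rest in large part on TMM: with library totals alone 4, 3, 5, 3 and 2 fell and 2, 2, 3, 4 and 8 rose at days 1, 3, 5, 7 and 14. Of the 14247 genes tested, 1670 to 2595 were then called lower on a day and 7822 to 10605 higher. Under that scaling Dach1 and Eya1 did not pass at days 3 and 7 and turned at day 14, and Six2 did not pass at day 1.

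**Figure D4:**
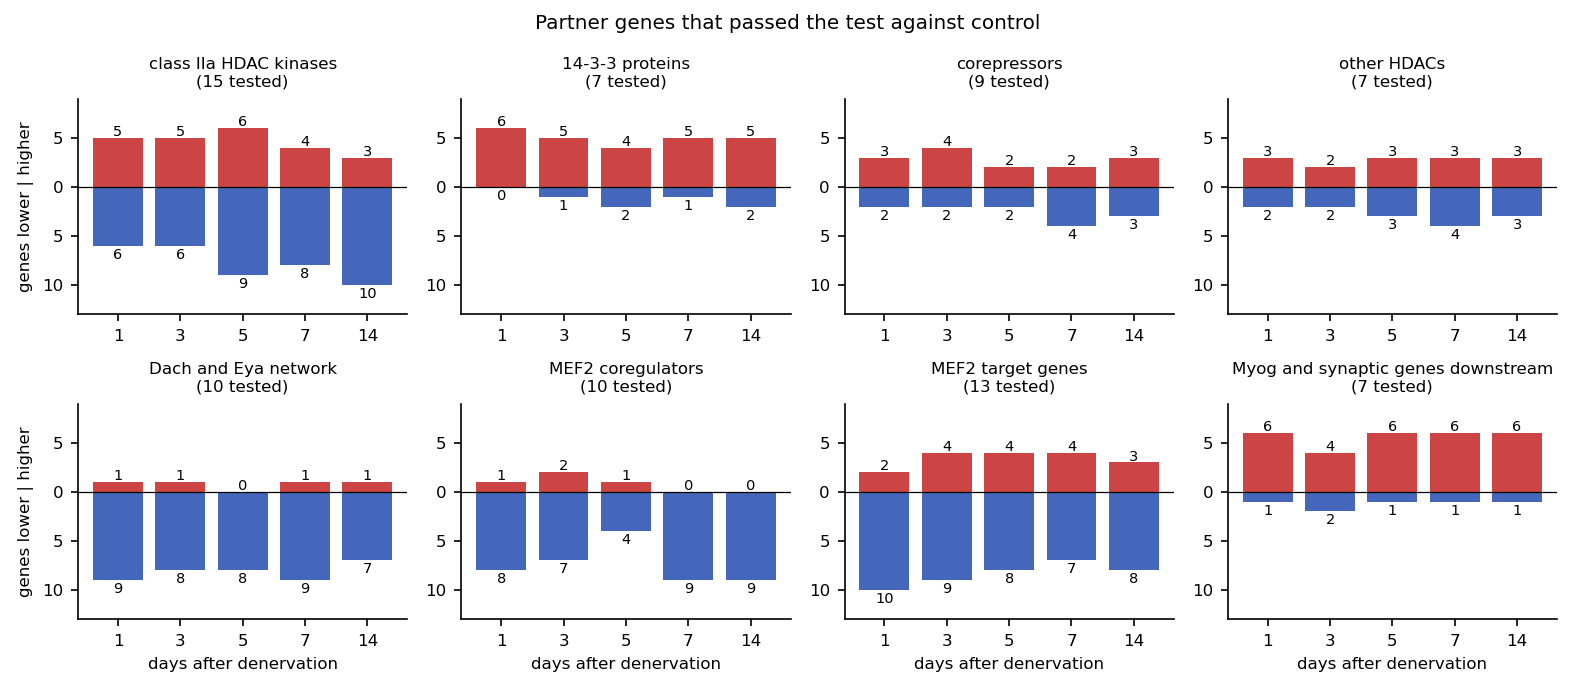
Number of genes that rose (bars above 0) or fell (bars below 0) (edgeR adjusted p of 0.05, TMM scaling) against control at each day, for the partner lists of the pathway. Of 10 genes of the Dach and Eya network, 9 fell at day 1 (36.2% of all genes did), and of 7 Myog and synaptic genes, 6 rose at day 1 (38.1% of all genes did). With library totals alone many calls of the kinase, coregulator and Dach and Eya network lists change direction. At day 1, for example, 12 rather than 5 kinase genes are up, beside 10051 rather than 5428 of the 14247 genes tested.

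With TMM, of 10 MEF2 coregulator genes 8 fell at day 1, 7 at day 3, 4 at day 5, and 9 at days 7 and 14, where 35.3% to 36.7% of all genes fell on a day. At days 1, 3 and 5, 1, 2 and 1 of them rose, and at days 7 and 14 none did. Vgll2, a muscle cofactor, changed by -1.60 at day 1, -1.30 at day 3, 0.98 at day 5 and -0.61 at day 14. Ncoa2, a coactivator gene, fell by 1.08 at day 3, and Maml1 and Vgll4 fell by 0.85 and 1.03 at day 14. The direction of the list depended on the scaling, since library totals alone gave 6 up and 2 down, 6 and 2, 8 and 0, 6 and 0, and 5 and 1. That scaling called 7822 to 10605 of the 14247 genes tested higher on a day and 1670 to 2595 lower. Ncoa2 and Vgll2 were among the coregulator genes that turned at day 14, and the fall of Maml1 then did not pass.

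Of 13 known MEF2 target genes, Hdac9 included, 10 fell at day 1, 9 at day 3, 8 at day 5, 7 at day 7 and 8 at day 14, with medians of -1.0, -0.75, -1.15, -1.41 and -1.06. In that order 2, 4, 4, 4 and 3 rose. Of all genes tested, 36.2%, 35.7%, 35.8%, 36.7% and 35.3% were called lower on these days. With library totals alone 7, 9, 8, 7 and 7 fell and 4, 4, 5, 6 and 6 rose. That scaling called 1899, 2595, 1680, 1732 and 1670 of the 14247 genes tested lower in that order, and 7822 to 10605 higher. Ckm, the muscle creatine kinase gene, changed by -1.11, -0.87, -1.70, -2.53 and -3.87, and Myom2, a gene of the M-band of the sarcomere, by -1.51, -1.29, -2.42, -2.23 and -2.99. Slc2a4, the insulin-regulated glucose transporter gene, fell by 1.47 at day 1 and 2.34 at day 14. Nr4a1, a nuclear receptor gene that responds to activity, fell by 1.89, 1.51, 2.72 and 2.57 at days 1, 5, 7 and 14 and rose by 0.29 at day 3. These 4 genes held their signs with library totals alone. With TMM, 9 targets fell at day 3, when Mef2a and Mef2c were below control, and 10 fell at day 1, when both were above it. Mef2d, the MEF2 factor most abundant by TPM in control, stood at -1.02 at day 1 and -0.057 at day 3. How the targets follow the MEF2 factors was not tested. The muscle fibre markers, to which Ckm also belongs, fell alongside, and their part was not tested.

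In the list of 5 atrophy genes placed under HDAC4 and Myog, 2 rose and 2 fell at day 1, 2 and 3 at day 3, and 3 and 2 at days 5, 7 and 14. Over all genes 34.5% to 40.2% rose and 35.3% to 36.7% fell on a day with TMM. Gdf5, a bone morphogenetic protein family ligand, rose by 6.05, 5.64, 6.62, 5.64 and 4.84. Gadd45a, a stress gene, rose by 2.16, 0.61, 3.44, 2.41 and 3.13. Trim63 and Fbxo32, the ubiquitin ligase genes MuRF1 and atrogin-1, fell on every day, to -4.65 and -4.34 (log2 change) at day 14, with the sign turned at day 5 under library totals alone.

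Among 13952 named genes, those with the mean profile over the 6 groups closest to each gene were found by the root mean square (RMS) difference of centred log2 CPM. For Hdac4 they were Tomt (0.145), Nradd and Coq8b, and for Hdac5 they included Lrrc61 (0.0617) and Cdc42ep3. For Hdac7 they were Arl8b (0.0268), Brpf1 and Ccdc71, for Hdac9 Zfp39 (0.0954), Tmem229a and Adamts12, and for Dach2 Car14 (0.180), Tpi1 and Smox. For Mef2a they were Trit1 (0.0727), Epha3 and Pkhd1l1, for Mef2c Agbl3 (0.109), Gramd1c and Platr25, and for Mef2d Dnajb5 (0.110), Tdrp and Foxo4. None of the 8 genes was among the 3 closest to another of them. Mef2c ranked 131 among the genes closest to Mef2a (RMS 0.319), and Hdac5 ranked 302 among those closest to Mef2d (RMS 0.292). A profile over 6 group means is a description, and these genes share the libraries and their scaling.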

How the data were processed

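Per the labels' protocols, TRIzol RNA was selected for mRNA on oligo(dT) beads and sequenced on an Illumina Novaseq6000. The authors deposited expected counts and TPM per gene and library, per the file headers. The aligner, quantifier, genome build and strandedness were not given in the sources used here. Expected counts (7.01% not whole) were rounded, and 24 libraries in 6 groups entered one edgeR 4.0.16 quasi-likelihood fit (R 4.3.3) with TMM scaling and filterByExpr (minimum count 10), two-sided, with Benjamini-Hochberg adjustment over 14247 genes. Log2 changes carry standard errors, and CPM and shares are mean ± SD. The deposited TPM served for levels between genes and for shares, tested by exact permutation. Alternatives were DESeq2 1.42.0, its size factors, library totals alone, other filters, the 2 groups alone, a replicate block and leaving out each library. The programs were tested on simulated data. All 8 genes and Myog were named. Each list gave up to 4 tested genes by size of change, and Chrne was named after its values were seen. Profile neighbours were the 3 closest named genes. Some genes that these rules name are not reported here. Of the identifiers, 21806 matched GENCODE M21 (GRCm38), which gave gene coordinates and may not be the authors' build. The genes and lists were chosen with earlier results of these data known.

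Replicate numbers are shared between groups, and same-numbered libraries did not deviate together (60 pairs, r from -0.078 to 0.077). Library totals ran from 16082849 to 20696884 counts.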

Additional observations from a re-analysis of the deposited data

Results flagged for a closer look

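In 48 sets of 4 libraries (8 genes, 6 groups) 3 held a library far from the other 3, where chance gives about 1 in 20. All were Mef2c: control replicate 2 was the highest at 150.79 CPM, day 3 replicate 3 the lowest at 83.8 CPM and day 7 replicate 3 the highest at 367.8 CPM. Each library stayed on its side of the other groups.

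The direction against control of Mef2a and Mef2c at day 3 was opposite to that at days 1 and 5, and the difference itself passed in edgeR. Day 3 minus day 1 was -1.01 for Mef2a and -1.74 for Mef2c, and day 5 minus day 3 was 1.03 for Mef2a and 1.31 for Mef2c. For Mef2a the value against control at day 3 was -0.42 with TMM and -0.042 with library totals alone.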

How the results depend on the processing

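With library totals alone Hdac7 turned against control at days 1, 3, 5, 7 and 14 (0.063, 0.18, 0.35, 0.14 and 0.16), from day 3 to day 5 (0.17) and from day 1 to day 14 (0.097), and no longer passed from day 1 to day 3 (0.11). Hdac9 then passed as higher at days 1, 5, 7 and 14 (0.47, 0.40, 0.84 and 0.74) and from day 5 to day 7 (0.44). In the same setting the day 3 difference from control was -0.99 for Dach2 and -0.042 for Mef2a, neither passing, and 0.32 for Mef2d. From day 3 to day 5 Hdac4 gave 0.26 and passed and Hdac5 gave -0.062 and did not, and Hdac4 passed from day 3 to day 14 (0.36) and from day 7 to day 14 (-0.099). Small differences turned for Hdac5 and Mef2d from day 1 to day 5 (0.046 and 0.061) and for Myog from day 1 to day 3 (-0.041) and day 5 to day 7 (0.075). These shifts follow from the construction of the setting, which moves all genes of a group together.

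Other settings touched few values. Mef2d at day 3 gave -0.038 without a filter and -0.043 with the 2 groups alone, not passing in either. Hdac4 from day 3 to day 5 gave 0.011 with DESeq2 and with its size factors and 0.031 with the 2 groups alone, and from day 5 to day 7 it gave 0.060 with DESeq2 and with its size factors, no longer passing. Shares taken from CPM gave -5.13, -5.78 and -5.92 points for Hdac7 at days 1, 3 and 5, which then passed, and -0.039 for Hdac9 at day 14. The cause was not tested. A filter at 1 CPM in 4 libraries removed Dach2 and changed no other call.

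Leaving out single libraries changed the sign or the call of the following, given as ranges: Dach2 day 14 minus day 7 (-1.79 to 0.81), day 5 minus day 1 (-1.19 to 0.61) and day 7 minus day 5 (-1.12 to 0.93), Hdac4 day 14 minus day 3 (-0.0072 to 0.034), day 5 minus day 3 (-0.033 to 0.0085) and day 7 minus day 5 (0.051 to 0.093), Hdac5 day 5 minus day 1 (-0.039 to 0.00058), Hdac7 day 5 minus day 3 (-0.15 to -0.063), Hdac9 against control at day 1 (-0.23 to 0.021), day 7 (-0.029 to 0.20) and day 14 (-0.090 to 0.18), Hdac9 day 14 minus day 7 (-0.16 to 0.10) and day 7 minus day 5 (0.22 to 0.43), Mef2d day 3 against control (-0.067 to -0.033) and day 5 minus day 1 (-0.014 to 0.013), and the share of Hdac9 at day 1 (-0.0090 to 0.40 points).

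The replicate block changed no call. With it Hdac4 at day 14 against control was 1.65 and Dach2 -4.33. The numbers share no pairing in the labels.

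Counts of 0 to 4 limit Dach2 after denervation.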
